A study of Mus musculus with 8 samples.

Results

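The genes described here, 10 in number, restrain JAK-STAT signaling and were followed across the RNA-seq samples: Socs1, Socs2, Socs3, Socs4, Cish, Ptpn1, Ptpn2, Ptpn11, Pias1 and Sh2b3. They were taken by gene name, and each had 1 row in both deposited tables, so that 10 of the 20432 genes found in both tables are described. The samples came from MC38, a cell line derived from a mouse colon adenocarcinoma, and formed 4 groups of 2: control cells, which the labels call wild type and the methods describe as carrying Cas9 and a control sgRNA, and DENR KO cells, made with Cas9 and sgRNA against Denr, each either left untreated or given IFNγ (20 ng/ml) over 4 h. Whether the 2 DENR KO samples of a treatment come from different sgRNAs or from separate cultures of the same line was not settled, so the p-values measure the spread between these samples, which may be technical. Levels are given as normalized counts, that is, reads on a gene divided by the size factor of the sample, as the authors deposited them. Each sample held between 17369020 and 18403790 reads on genes. Socs2 and Cish were the shallowest members, with between 47 and 150 reads in each sample, so counting error weighs most on their values.

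IFNγ binds its receptor on the cell surface, the receptor-bound kinases JAK1 and JAK2 phosphorylate STAT proteins, and STAT dimers switch on target genes by binding GAS elements. The pathway is held in check at several steps. SOCS proteins are made in response to cytokines and either block the kinases or bring a ubiquitin ligase to the receptor complex, whereas tyrosine phosphatases such as PTPN1 and PTPN2 remove the phosphates, PIAS proteins bind STATs and act as SUMO ligases, and the adaptor LNK, the product of Sh2b3, binds JAK2. In tumor cells, SOCS1 and PTPN2 are known as brakes on the response to IFNγ. DENR is a protein that helps ribosomes resume translation after a short upstream open reading frame, and only transcript levels were measured here, not translation or protein.

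The paper checked the knockout in MC38 cells on DENR protein by western blotting. Here the transcript of Denr was read, and its level does not measure loss of the protein. With IFNγ its normalized count was 1438 and 1401 in control samples against 946 and 957 in DENR KO samples, and untreated it was 1448 and 1297 against 943 and 916. The DENR KO samples thus held 67.0% and 67.7% of the control level (adjusted p = 8.2e-06 and 1.1e-04 from limma). Of 8 epithelial marker genes, Epcam, Krt20 and Cdx2 were in neither table, and the others summed to between 12.7 and 24.6 normalized counts in a sample, so the defining epithelial markers were absent or near 0 in this line. Of 4 mesenchymal markers, Vim was the most abundant (between 62697 and 74880). Col3a1 lay between 2253 and 3813, Pdgfra between 1706 and 2056, and Col1a1 between 315 and 550. Ptprc and Itgam did not exceed 3.06 in the table that listed them, and Cd68 lay between 51.3 and 78.6. None of the marker genes tested passed the limma test between genotypes in either table, and 0 had an unadjusted p under 0.05. Col1a1 and Col3a1 were lower with IFNγ in both genotypes (edgeR adjusted p between 1.8e-05 and 0.0069), and their part in the IFNγ responses given below was not tested.

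The members differed in how they responded to IFNγ. The promoters of the SOCS genes were therefore searched for GAS letters, and separately for GAAANNGAAA, which is not a GAS element. RefSeq promoters, from 250 bases before to 50 bases after the start of a gene in GRCm38.p6, were read for 8 of the 10 members, all except Socs2 and Ptpn2. The GAS letters TTCNNNGAA, which read the same on both strands, were found in 2 members, and the letters GAAANNGAAA, searched on both strands, in 1 member. The other 5 members held neither. Below, capitals mark the matching bases on the strand of the gene.
Socs1: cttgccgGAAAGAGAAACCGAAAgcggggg
Socs3: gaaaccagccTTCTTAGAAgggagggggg
Cish: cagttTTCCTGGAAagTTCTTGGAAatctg
The Socs1 window lies at chr16:10785597-10785626 on the minus strand and holds 2 overlapping GAAANNGAAA matches, the first beginning 83 bases before the RefSeq start, which is also the start of the gene in the deposited tables. The Socs3 window lies at chr11:117969502-117969530 on the minus strand, with the match beginning 154 bases before the RefSeq start at 117969366, a start that lies 681 bases inside the gene as the deposited tables give it. The Cish window lies at chr9:107296654-107296683 on the plus strand and holds 2 TTCNNNGAA matches, the first beginning at the RefSeq start, 107296659, which lies 633 bases inside the gene as the deposited tables give it. Among 32851 promoters of the same length, 8.30% held TTCNNNGAA at least once and 0.457% at least 2 times, whereas 3.44% held GAAANNGAAA at least once and 0.225% at least 2 times. A match describes the letters only and was not tied to binding in these cells. A start-stop upstream open reading frame, in which the stop codon comes right after ATG, was present in an annotated 5ʹ UTR of 3 of the 10 members (Cish, Ptpn11 and Sh2b3) and of 12.7% of 20874 genes.

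Socs1 is a kinase-blocking family member that acts on JAK1, JAK2 and TYK2. Its gene lies at chr16:10782240-10785536 (minus strand). Untreated, the 4 samples held between 517 and 597 normalized counts, with 597 and 517 in control and 539 and 577 in DENR KO cells, and the genotypes overlapped. With IFNγ the control samples stood at 3314 and 3616 and the DENR KO samples at 2087 and 2032. All treated samples were far above all untreated ones, and the treated DENR KO samples lay below both treated controls. The mean with IFNγ was 3465 ± 214 (SD, n = 2) in control cells and 2059 ± 39.4 with the knockout, or 59.4% of control. The log2 difference was −0.75 (SE 0.063, 95% confidence interval −0.88 to −0.62, adjusted p = 1.9e-08 from limma over all genes tested). Untreated, it was 0.0046 (SE 0.097, adjusted p = 0.99).

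**Figure D1:**
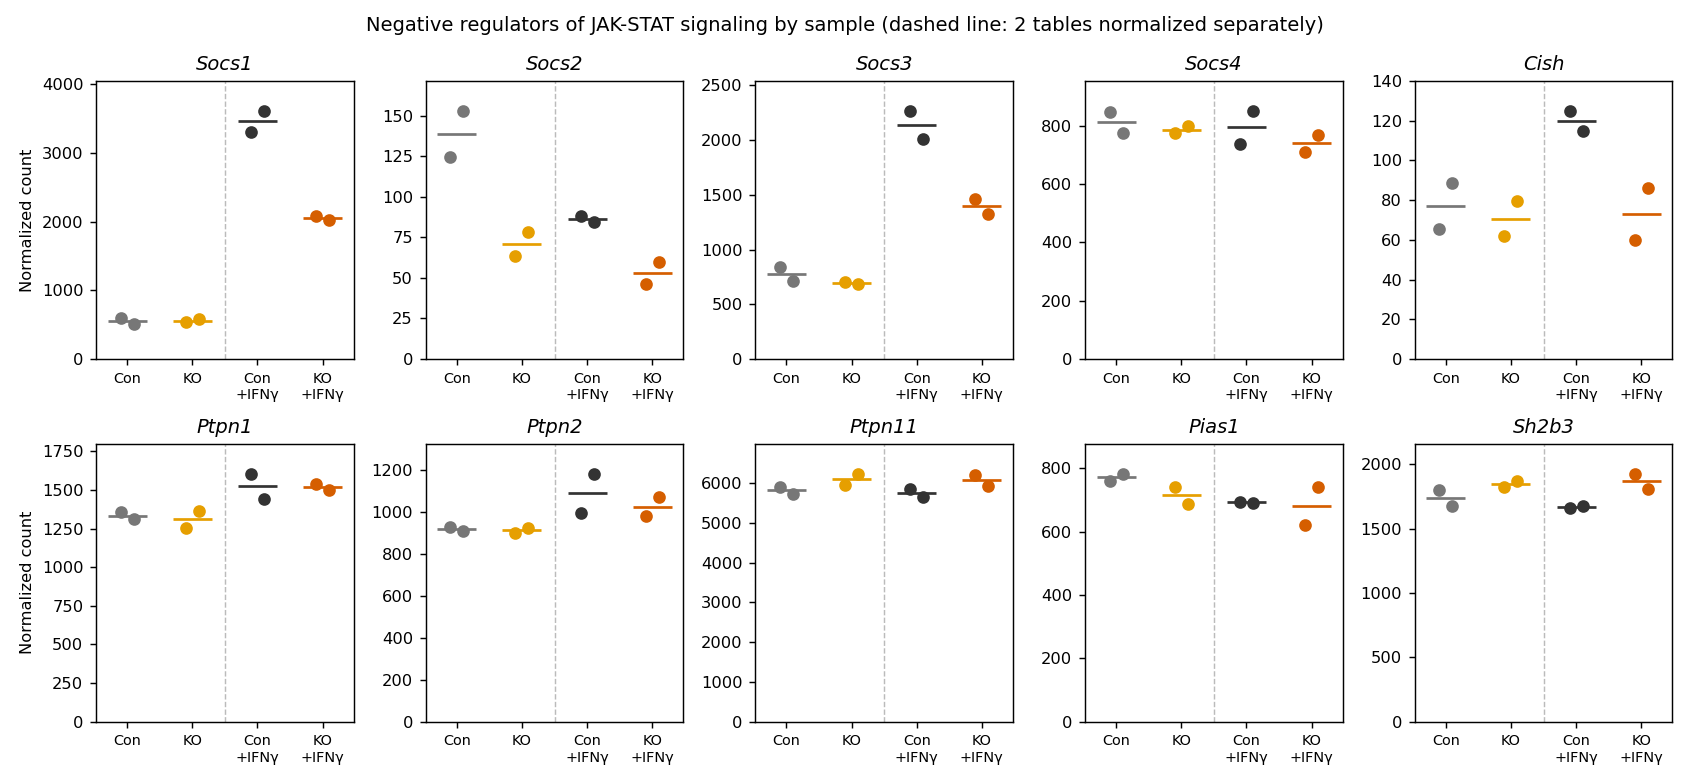
Normalized count of each of the 10 genes (linear y axis from 0) in control (Con) and DENR KO (KO) samples, untreated on the left and with IFNγ on the right of each panel. Points are samples (2 per group), bars are group means, and the dashed line separates the tables, which were normalized separately. Socs1, Socs3 and Cish were lower in DENR KO than in control cells with IFNγ, and Socs2 was lower untreated.

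Socs3, which binds gp130 and restrains STAT3 signaling by cytokines of the IL-6 family, followed the same order at smaller size. Its gene lies at chr11:117966079-117970047 (minus strand). Untreated, control samples held 841 and 717 normalized counts and DENR KO samples 706 and 690. With IFNγ they held 2269 and 2012 in control and 1465 and 1325 in DENR KO cells. Again every treated sample exceeded every untreated sample. The genotypes did not overlap with IFNγ, and unlike Socs1 they did not overlap untreated either. The DENR KO mean was 65.2% of control with IFNγ (log2 difference −0.62, SE 0.073, 95% confidence interval −0.77 to −0.46, adjusted p = 5.3e-06 from limma). The untreated difference of −0.15 did not pass the test (adjusted p = 0.62).

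Cish, the founding member of the family, is known as a STAT5 target that restrains STAT5 signaling. It lies at chr9:107296026-107302784 (plus strand) and was a low transcript in MC38 cells. With IFNγ the normalized counts were 125 and 115 in control against 60.0 and 85.9 in DENR KO cells, whereas untreated they were 65.4 and 88.8 against 61.8 and 79.6. The treated control samples were thus above the other 6 samples, which overlapped among themselves. The DENR KO mean with IFNγ was 60.9% of control (log2 difference −0.73, SE 0.203, 95% confidence interval −1.15 to −0.31, adjusted p = 0.042 from limma). This call was lost with edgeR (adjusted p = 0.052) and with DESeq2 (adjusted p = 0.44) on the recovered reads, with all 8 samples in the same limma fit (adjusted p = 0.078), and without replicate 1 of control (adjusted p = 0.12) or replicate 1 of DENR KO (adjusted p = 0.50). Its exons overlap Gm17040 and Gm17041 on the opposite strand, and strand handling is not given in the sources used here. Whether the overlap adds reads to its count or removes them was not tested.

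Socs2, which restrains growth hormone signaling, had its highest values in untreated control cells. It lies at chr10:95385362-95417180 (minus strand). The untreated normalized counts were 125 and 153 in control and 63.8 and 78.6 in DENR KO cells, and with IFNγ they were 88.1 and 84.6 against 46.3 and 59.6. In both tables each DENR KO sample was below each control sample. Untreated, the DENR KO mean was 51.2% of control (log2 difference −0.96, SE 0.197, 95% confidence interval −1.36 to −0.55, adjusted p = 0.013 from limma). With IFNγ it was 61.3%, and the log2 difference of −0.71 (95% confidence interval −1.17 to −0.25) did not pass the test (adjusted p = 0.083). The untreated call was lost with DESeq2 (adjusted p = 0.25) and without replicate 1 of control (0.061), replicate 2 of control (0.37) or replicate 1 of DENR KO (0.10), each an adjusted p.

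Socs4, a family member linked to the EGF receptor, stayed within a narrow band. Its gene lies at chr14:47276931-47296102 (plus strand). The 8 samples held between 711 and 852 normalized counts, and control and DENR KO samples overlapped in both tables. The log2 difference between genotypes was −0.10 (95% confidence interval −0.28 to 0.08, adjusted p = 0.72 from limma) with IFNγ and −0.04 (−0.22 to 0.13, adjusted p = 0.92) untreated.

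The 3 phosphatases did not pass the test in either comparison of the genotypes. Ptpn1 encodes PTP1B, which dephosphorylates JAK2 and TYK2, and lies at chr2:167932057-167979385 (plus strand). It held 1607 and 1442 normalized counts in control and 1536 and 1502 in DENR KO cells with IFNγ, and 1355 and 1311 against 1257 and 1367 untreated. The genotypes overlapped in both tables, with a log2 difference of −0.0027 (95% confidence interval −0.15 to 0.14, adjusted p = 0.99 from limma) with IFNγ. Ptpn2 encodes TC-PTP, which acts on JAK1, and lies at chr18:67665511-67724595 (minus strand). It held 994 and 1184 against 982 and 1070 with IFNγ, and 929 and 908 against 901 and 925 untreated. Its log2 difference was −0.08 (95% confidence interval −0.26 to 0.09, adjusted p = 0.77) with IFNγ. Ptpn11 encodes SHP2, which dephosphorylates STATs and also promotes signaling through RAS, and lies at chr5:121130533-121191397 (minus strand). It held 5839 and 5641 against 6204 and 5928 with IFNγ, and 5908 and 5716 against 5960 and 6237 untreated. Each DENR KO sample was above each control sample of its table, by a log2 difference of 0.08 with IFNγ (95% confidence interval −0.03 to 0.19, adjusted p = 0.61) and 0.07 untreated (−0.05 to 0.19, adjusted p = 0.77).

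Pias1, which encodes a SUMO ligase that binds activated STATs, lies at chr9:62878368-62987924 (minus strand). Its normalized counts were 695 and 691 in control and 620 and 742 in DENR KO cells with IFNγ, and 762 and 784 against 742 and 689 untreated. The genotypes overlapped with IFNγ (log2 difference −0.03, 95% confidence interval −0.22 to 0.16, adjusted p = 0.95 from limma), and the untreated difference of −0.11 did not pass the test (adjusted p = 0.73). Sh2b3, the gene of the JAK2-binding adaptor LNK, lies at chr5:121815488-121837646 (minus strand). It held 1659 and 1679 normalized counts in control and 1929 and 1811 in DENR KO cells with IFNγ, and 1797 and 1678 against 1826 and 1871 untreated. It was the member with the largest log2 difference above 0, 0.16 with IFNγ (SE 0.066, 95% confidence interval 0.03 to 0.30), which did not pass the test (adjusted p = 0.24). Its exons overlap Atxn2 on the opposite strand, with the same limit as for Cish.

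Counted together, 3 of the 10 members were lower and 0 higher in DENR KO than in control cells with IFNγ at an adjusted p under 0.05, against 2.25% lower and 1.8% higher among the 13928 genes tested. All 3 belong to the SOCS family. At an unadjusted p under 0.05, limma gave 4 members lower (Socs2 in addition) and 1 higher (Sh2b3), beside 6.45% and 6.96% of all genes tested. At an adjusted p under 0.05, edgeR and DESeq2 each called 2 members lower (Socs1 and Socs3) and 0 higher, beside 2.19% and 1.8% of 14131 genes in edgeR and 1.01% and 0.551% of 22142 genes in DESeq2. The DESeq2 shares, here and in the interaction, are over every gene with a read, whereas low genes were left out in limma and edgeR. They are thus not like for like with the other shares. Untreated, 1 member was lower (Socs2) and 0 higher, against 0.15% and 0.429% of 13998 genes, and the member counts were the same at an unadjusted p under 0.05, beside 3.74% and 5.51% of genes. The untreated calls were 21 lower and 60 higher over all genes, and became 29 and 44 when each sample was centred on its median. The median log2 difference over the 10 members was −0.09 with IFNγ and −0.03 untreated, beside −0.00036 and 0.0019 over all genes tested. In normalized counts, 4 members were lower and 2 higher without overlap of the genotypes with IFNγ (20.8% and 21.1% of genes), and 3 were lower and 2 higher untreated (19.6% and 20.4%). The 10 genes were chosen with earlier results of these data known.

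**Figure D2:**
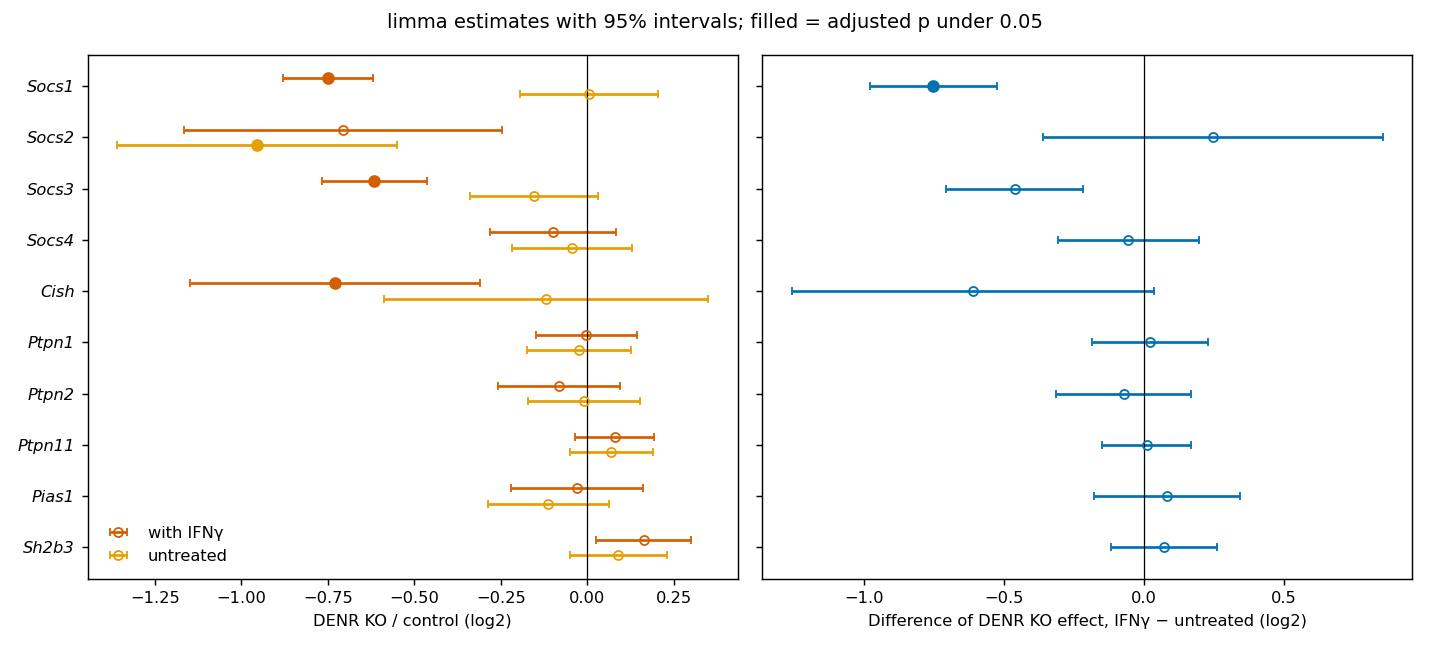
Log2 difference of DENR KO over control for each gene with IFNγ and untreated (left), and the difference between those values (right), as limma estimates with 95% confidence intervals. Filled points passed an adjusted p of 0.05 over all genes. Socs1 lies at −0.75 with IFNγ and at 0.0046 untreated, and is the only one of the 10 with a filled point on the right.

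Whether the DENR KO effect depended on treatment was tested with an interaction term fitted to the 8 samples. The fit shares its samples with the comparisons above. At an adjusted p under 0.05, 1 member was called lower (Socs1) and 0 higher, against 0.429% and 0.0214% of 13998 genes. At an unadjusted p under 0.05 there were 2 (Socs1 and Socs3) and 0, beside 3.24% and 2.5% of genes. At an adjusted p under 0.05, edgeR and DESeq2 each called Socs1 lower and 0 members higher, beside 0.415% and 0.0204% of 14691 genes in edgeR and 0.269% and 0.0147% of 20432 genes in DESeq2. For Socs1 the DENR KO effect with IFNγ minus that untreated was −0.75 (SE 0.109, 95% confidence interval −0.98 to −0.53, adjusted p = 4.4e-04 from limma). For Socs3 it was −0.46 (SE 0.118, 95% confidence interval −0.71 to −0.22), which did not pass over all genes (adjusted p = 0.12). Leaving out each sample in turn moved the Socs3 value between −0.58 and −0.35. Cish had −0.61 with a wider error (SE 0.313, 95% confidence interval −1.26 to 0.04, adjusted p = 0.91). For Socs2 the value was 0.25 (95% confidence interval −0.36 to 0.86, adjusted p = 0.998). The other 6 members had values between −0.07 and 0.08.

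The size of the IFNγ response was described within each genotype. Because the tables were normalized separately, the recovered reads of all 8 samples were scaled together, and ratios of group means are given as a description. The adjusted p beside them comes from edgeR on the same reads. Socs1 rose 6.57-fold in control cells (adjusted p = 3.2e-20) and 3.88-fold in DENR KO cells (7.0e-17). Socs3 rose 2.90-fold (8.0e-14) and 2.10-fold (2.4e-10). Cish rose 1.64-fold in control cells (0.025), whereas its ratio of 1.09 in DENR KO cells did not pass (0.85). The difference of these responses is the interaction given above.

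Among the phosphatases, Ptpn1 rose 1.21-fold in control and 1.22-fold in DENR KO cells (edgeR adjusted p = 0.0076 and 0.0064). Ptpn2 rose 1.25-fold in control cells (0.0059), and its ratio of 1.18 in DENR KO cells did not pass (0.058). Socs2 moved the other way and fell in control cells (ratio 0.656, adjusted p = 0.040), while its ratio of 0.781 in DENR KO cells did not pass (0.44). Socs4, Ptpn11, Pias1 and Sh2b3 had ratios between 0.947 and 1.06 in both genotypes, and none passed. In all, edgeR called 5 members higher and 1 lower in control cells, beside 8.92% and 5.94% of 14691 genes, and 3 higher and 0 lower in DENR KO cells, beside 6.88% and 2.8%. The smaller responses rested on few samples. Without replicate 1 of treated control the calls for Ptpn1, Cish and Socs2 were lost, and without replicate 2 those for Ptpn2, Cish and Socs2. Without replicate 1 of untreated control the call for Cish was lost, and without replicate 2 those for Ptpn1 and Socs2. In DENR KO cells the call for Ptpn1 was lost without replicate 1 of either treatment.

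**Figure D3:**
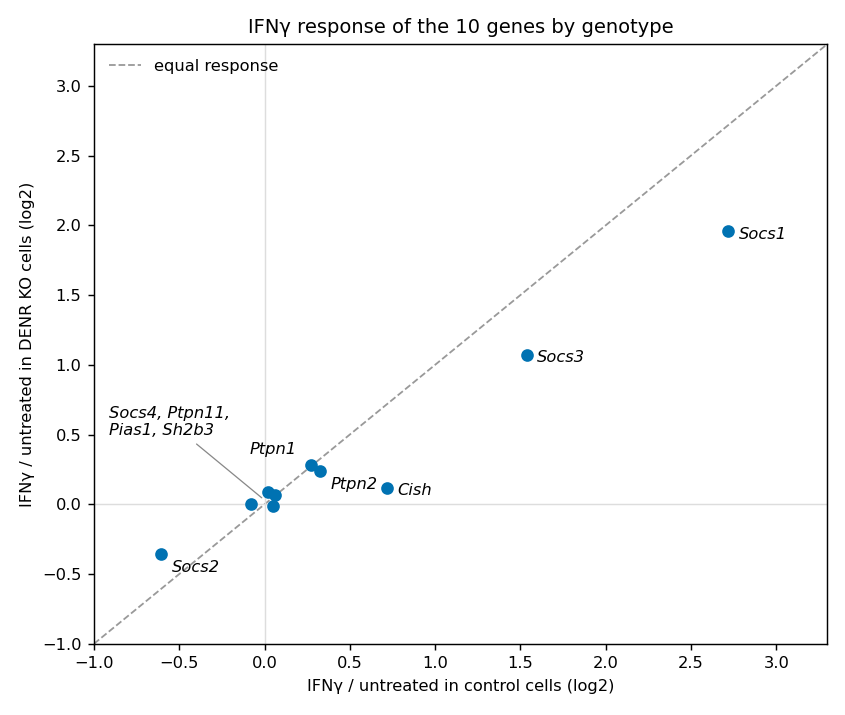
Log2 ratio of IFNγ-treated to untreated group means in control cells (x axis) and DENR KO cells (y axis) for the 10 genes, from recovered reads scaled over all 8 samples. On the dashed line the responses are equal. Socs1 (2.72 and 1.96), Socs3 (1.54 and 1.07) and Cish (0.72 and 0.12) lie below it.

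The members also differed in level relative to one another. Levels per length are reads per kilobase of the deposited gene length, scaled to the reads on genes (RPKM). That length is 9531 bases for Socs2 and 6419 for Cish, against 2908 for Socs1. The transcript forms in use were not measured, so the order across genes depends on these lengths. Ptpn11 led untreated control cells at 43.2 ± 0.764 (SD, n = 2), followed by Sh2b3 at 20.1. Ptpn2 (16.4), Socs3 and Ptpn1 (13.4) came next, and neighbors among these 3 did not differ beyond their spread. Socs1 stood sixth at 10.7. Socs4 (6.57) and Pias1 (6.30) did not differ beyond their spread, and neither did Socs2 (0.812) and Cish (0.669), the lowest. With IFNγ, Socs1 became the most abundant of the 10 in control cells at 66.9 ± 3.98, above Ptpn11 (43.0) and Socs3 (41.6), which did not differ beyond their spread. In DENR KO cells with IFNγ, Ptpn11 at 45.8 ± 1.40 remained above Socs1 at 40.1 ± 0.709 and Socs3 at 27.3 ± 1.90. The first place of the order thus differed between the genotypes under IFNγ, whereas untreated DENR KO cells were again led by Ptpn11 (45.1) and Sh2b3 (21.3).

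Further genes of the pathway were taken from lists by their roles, chosen with earlier results of these data known. Of 10 further brakes, 9 were tested, and with IFNγ 1 was higher and 0 lower in DENR KO cells, beside 1.8% and 2.25% of 13928 genes. The 1 called was Socs5, which is linked to the EGF receptor and to IL-4 signaling. It had 3224 and 3531 normalized counts in control against 3903 and 4225 in DENR KO cells (log2 difference 0.27, adjusted p = 0.012 from limma), and its direction was thus opposite to that of Socs1, Socs3 and Cish. The call was lost without replicate 1 of control (adjusted p = 0.14) or replicate 2 of DENR KO (adjusted p = 0.16). The 6 genes listed as ubiquitin ligase parts (Elob, Eloc, Cul5, Cul2, Rnf7 and Rbx1) were all tested and none passed, with log2 differences between −0.17 and 0.07. The list holds alternative cullins (Cul5 and Cul2), so it does not describe a single ligase. Which of these parts act with SOCS proteins in MC38 cells was not tested. At an unadjusted p under 0.05 in limma, 2 (Cul2 and Rbx1) were below 0, beside 6.45% of genes. Of the 5 listed ligands that act through gp130 and were in the tables, 4 were tested and none passed (0 at an unadjusted p under 0.05). The edgeR and DESeq2 tests called none of the genes of these last 2 lists.

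Of 19 receptors, kinases and STATs, 18 were tested, and with IFNγ 4 were lower and 0 higher in DENR KO cells. Over all 13928 genes tested, 2.25% were lower and 1.8% higher. Osmr, the oncostatin M receptor that signals with gp130, had 895 and 941 normalized counts in control against 578 and 626 in DENR KO cells (log2 difference −0.61, adjusted p = 4.0e-05 from limma). Stat3, which SOCS3 restrains, had 5533 and 5179 against 3714 and 3648, or 68.7% of control. Stat2 had a log2 difference of −0.52 (adjusted p = 1.8e-05) and Jak2 −0.30 (0.0064). Without replicate 2 of control the call for Jak2 was lost (adjusted p = 0.063). Untreated, no gene of these 4 lists passed in limma, edgeR or DESeq2, beside 0.15% lower and 0.429% higher of 13998 genes in limma. At an unadjusted p under 0.05 in limma, 1 (Socs5) was higher, beside 5.51% of genes. The only list member besides Denr that passed untreated at an adjusted p under 0.05 was Socs2.

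**Figure D4:**
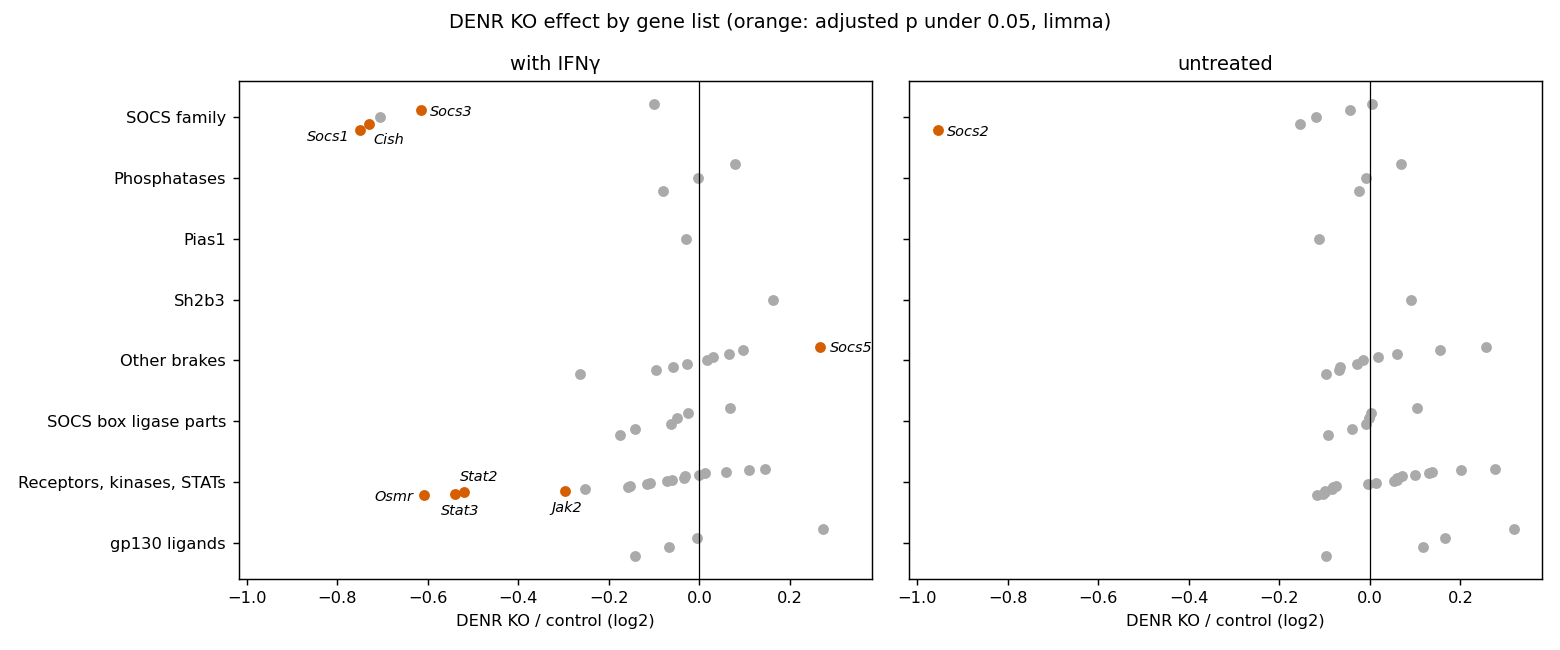
Log2 difference of DENR KO over control for each tested gene of the lists (rows), with IFNγ (left) and untreated (right). Each point is a gene, and orange points with names passed an adjusted p of 0.05 over all genes (limma). With IFNγ, 3 of 5 SOCS family members and 4 of 18 receptors, kinases and STATs were lower and Socs5 was higher, whereas untreated only Socs2 passed among the genes shown. Over all genes tested, 2.25% were lower and 1.8% higher with IFNγ, and 0.15% and 0.429% untreated.

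With IFNγ alone, the same lists held other transcripts that rose in both genotypes in edgeR. Usp18, a protease that removes ISG15 and restrains type I interferon signaling, rose 3.55-fold in control and 2.94-fold in DENR KO cells (adjusted p = 1.9e-04 and 0.0020). It was low, with group means between 19.6 and 66.6 normalized counts. Lif, a gp130 ligand, rose 3.33-fold and 2.78-fold (adjusted p = 2.5e-14 and 8.6e-13), and Cul2, a ligase scaffold, rose by log2 ratios of 0.38 and 0.33 (adjusted p = 7.1e-05 and 7.0e-04). Pias3, a relative of Pias1, fell in both (ratios 0.796 and 0.798, adjusted p = 0.010 and 0.018). Of the 18 receptors, kinases and STATs tested, edgeR called 10 higher in control and 8 in DENR KO cells, with 0 lower in either. Over all 14691 genes, 8.92% and 6.88% were called higher. Stat2 rose 6.44-fold in control and 4.72-fold in DENR KO cells, and Osmr 6.42-fold and 3.61-fold. Stat3 rose 6.37-fold and 4.17-fold, and Jak2 1.94-fold and 1.69-fold. These 4 were also lower in DENR KO than in control cells with IFNγ, as given above. In addition, 3 receptor genes rose in both genotypes too. Ifnar2, of the type I interferon receptor, rose 1.73-fold in control and 1.45-fold in DENR KO cells (adjusted p = 5.5e-07 and 2.0e-04). Il6st, which encodes gp130, rose 1.36-fold and 1.31-fold (adjusted p = 1.3e-06 and 1.0e-05), and Ifngr1, of the IFNγ receptor, 1.23-fold and 1.17-fold (adjusted p = 0.0051 and 0.046). Another 4 genes passed in 1 genotype, namely Ifngr2, Jak3 and Stat5a in control cells and Jak1 in DENR KO cells, and whether these responses differed was tested by the interaction, in which none of them passed. Apart from Stat2, Osmr, Stat3 and Jak2, the genes of this paragraph were those that no limma comparison called. That none of them passed between genotypes thus follows from how they were taken.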

How the data were processed

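RNA-seq of MC38 cells was analysed from 2 tables, 1 per treatment, holding 22142 and 22288 genes. Each value is a normalized signal, deposited by the authors as the read count divided by the size factor of the sample, with each table normalized separately. The submitters' processing notes name HISAT2 2.0.5, StringTie 1.3.3b, featureCounts 1.5.0-p3, DESeq2 1.20.0 and mm9, but the coordinates of the members are those of GRCm38 (GENCODE M21). Strand handling is not given in the sources used here. The tables' columns of group means, fold changes and p-values from the authors' comparison were not used. In every sample 100% of values were whole reads within 0.001.

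Genotypes were compared within a table with limma 3.58.1 (R 4.3.3; trend, robust) on log2(value + 1), which understates changes of low genes, with genes of mean 10 or more, and called at a Benjamini-Hochberg adjusted p under 0.05. Difference by treatment was an interaction over 8 samples. edgeR 4.0.16 and DESeq2 1.42.0 were run on recovered reads as alternatives, and the fits of limma, edgeR and DESeq2 were tested on simulated data. The simulation gave all genes the same spread beyond counting error and changed only genes with a mean of at least 100 reads. It thus does not cover genes as low as Socs2 and Cish. Members and lists were chosen with earlier results of these data known. A gene of the list of receptors, kinases and STATs is not reported here. Every member is named in each comparison, other list genes where called in a limma comparison, and for Socs1 and Socs3 the 3 genes with the nearest profile (mean of at least 100). List genes called for the IFNγ response in edgeR but in no limma comparison, and the marker genes, were named after their values were seen.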

Additional observations from a re-analysis of the deposited data

Results flagged for a closer look

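The DENR KO effect differed between IFNγ-treated and untreated cells for 3 genes of the lists, by the interaction test of limma over all genes. All 3 values were below 0, and 0.429% of 13998 genes were called lower and 0.0214% higher. For Socs1 the difference, IFNγ minus untreated, was −0.75 on the log2 scale, and in the treated cells each DENR KO sample was below each control sample, whereas untreated samples of the genotypes overlapped. For Osmr it was −0.81 (adjusted p = 0.022), and the call was lost without any 1 of the 4 treated samples or replicate 2 of untreated DENR KO, with an adjusted p between 0.059 and 0.23. For Stat3 it was −0.60 (adjusted p = 0.0019).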

How the results depend on the processing

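Each comparison was recomputed with other pseudocounts, filters, centring, tools and samples. In the comparison of genotypes with IFNγ, 314 genes were lower and 251 higher in DENR KO cells. A log2 difference beyond 0.5 left 143 and 72, and DESeq2 called 122 higher. Untreated, 21 were lower and 60 higher, DESeq2 called 13 and 37 and no member (0 lower, with 205 and 320 genes at an unadjusted p under 0.05), and a log2 difference beyond 0.5 left 12 and 18. Centring on the median turned the untreated difference of Socs1 from 0.0046 to −0.023, and neither passed the test. The log2 IFNγ ratios moved with the values as deposited. In control cells Ptpn11, Pias1 and Sh2b3 went from 0.06, −0.08 and 0.02 to −0.02, −0.16 and −0.06. In DENR KO cells Ptpn11 and Sh2b3 went from 0.06 and 0.09 to −0.0076 and 0.02. The sign thus turned for Ptpn11 in both genotypes and for Sh2b3 in control cells only, whereas Pias1 in control cells kept it. It turned too for Socs4 in control (0.05 to −0.03) and Pias1 in DENR KO cells (0.0018 to −0.07). None of the ratios that turned had passed in edgeR.

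The replicate numbers of the groups are shared but no label ties them to a batch or culture. Deviations of same-numbered control and DENR KO samples correlated by 0.096 with IFNγ and 0.014 untreated over the genes tested, and by 0.22 and 0.047 among genes whose mean was 100 or more. With the replicate number as a replicate block, 729 genes were lower and 726 higher with IFNγ, 89 and 168 untreated, and in the interaction 13 were higher. Sh2b3 then passed with IFNγ (members higher: 1), Socs2 passed with IFNγ too (adjusted p = 0.033), and Socs3 passed in the interaction (adjusted p = 0.0085; 2 members lower). In edgeR with the block, Ptpn2 passed in DENR KO cells.

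Leaving out each sample in turn, where a group left with 1 sample is assumed to vary like the others, gave the following ranges. With IFNγ, 281 to 307 genes were lower and 146 (without replicate 1 of DENR KO) to 341 higher, and 2 to 3 members lower. Untreated, 15 to 41 were lower, 20 to 61 higher, and 0 to 1 members lower. In the interaction, 35 to 81 were lower, 1 to 12 higher, and 1 to 2 members lower. For the IFNγ response, 546 to 896 genes were lower and 1046 to 1301 higher in control cells, with 3 to 5 members higher and 0 to 1 lower, and 168 to 504 lower (191 and 173 without replicate 1 and replicate 2 of untreated DENR KO) and 652 to 1077 higher in DENR KO cells, with 2 to 4 members higher. Socs1 kept its calls with IFNγ (−0.81 to −0.69) and in the interaction (−0.86 to −0.65), and Socs3 its call with IFNγ (−0.70 to −0.53). The sign of values that had not passed turned for several members: untreated for Socs1 (−0.10 to 0.11), Cish (−0.34 to 0.10), Ptpn1 (−0.085 to 0.036), Ptpn2 (−0.028 to 0.0098) and Socs4 (−0.11 to 0.022). With IFNγ it turned for Pias1 (−0.16 to 0.10), Ptpn1 (−0.081 to 0.075), Ptpn2 (−0.21 to 0.045) and Socs4 (−0.20 to 0.0035). In the interaction it turned for Pias1 (−0.048 to 0.21), Ptpn1 (−0.056 to 0.10), Ptpn2 (−0.20 to 0.054), Ptpn11 (−0.022 to 0.043) and Socs4 (−0.16 to 0.048). Socs2 and Cish, with the fewest reads, are limited by counting error and by 2 samples per group.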

Other observations

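The genes whose profile over the 8 samples was most like that of Socs1, by Euclidean distance between centred log2 values of reads scaled together, were C1ra (distance 0.287), which encodes a complement protease, Stat3 (0.292) and Nod1 (0.296), which encodes a sensor of bacterial peptidoglycan. The median distance from Socs1 over 10316 genes was 3.41. In control cells these 3 genes had log2 ratios of IFNγ-treated to untreated of 2.78, 2.67 and 2.80, and in DENR KO cells of 2.02, 2.06 and 2.09, beside 2.72 and 1.96 for Socs1. For Socs3 the nearest were Tnip1 (0.244), which encodes a protein that restrains NF-κB signaling, Xdh (0.250), the gene of xanthine dehydrogenase, and Ifitm3 (0.270), an interferon-induced membrane protein that restricts virus entry. The median distance from Socs3 over the same genes was 1.99. Profiles over the same 8 samples share libraries and depth, so the distances are a description.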
